A study of Homo sapiens with 5 samples.

Results

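The let-7 and miR-98 family was read with 9 probes, chosen by exact name from 734 miRNA probes (654 human, 80 viral) on NanoString's human miRNA panel. The names were hsa-let-7a, hsa-let-7b, hsa-let-7c, hsa-let-7d, hsa-let-7e, hsa-let-7f, hsa-let-7g, hsa-let-7i and hsa-miR-98, given below without the species prefix. In that assay a coloured reporter barcode bound to each ligated miRNA is counted without amplification. The cells were Caco2, an established line from a human colorectal adenocarcinoma that grows as a polarised epithelium. In 3 samples PLEKHA7, which sits at adherens junctions, was targeted by an shRNA (shPLEKHA7, replicates 1, 2 and 3), and 2 control samples carried a non-target shRNA (NT, replicates 1 and 3). All 5 had been infected and selected, in independent infections per the series' design text, and their total RNA was counted to ask how PLEKHA7 depletion affects miRNAs. The titles give the depletion only as shPLEKHA7 with a number, and do not say how many shRNA sequences were used. For 2 of these samples the source name gives a different PLEKHA number, and the title was used. PLEKHA7 RNA itself was not analysed here. No NT replicate 2 was analysed here.

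The let-7 miRNAs are ancient regulators of developmental timing that stay low in stem cells and rise as cells differentiate. They silence growth-promoting mRNAs such as those of RAS proteins, MYC and HMGA2, and are commonly described as tumour suppressors in epithelia. Their precursors are bound by LIN28 proteins, which block maturation, so that mature levels need not follow transcription of the host loci.

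The mature sequences show how alike these targets are, which bears on every comparison below. They are from RefSeq (GRCh38.p14), run 5′ to 3′, and carry the seed (bases 2 to 8) in capitals. All 9 matched by name, and all 9 equal the target the panel lists for the probe.
let-7a: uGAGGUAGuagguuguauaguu
let-7f: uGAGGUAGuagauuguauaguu
let-7c: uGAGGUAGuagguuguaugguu
miR-98: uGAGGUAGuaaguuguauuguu
let-7e: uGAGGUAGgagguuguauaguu
let-7g: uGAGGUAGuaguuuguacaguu
let-7i: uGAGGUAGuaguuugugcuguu
let-7d: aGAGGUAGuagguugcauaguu
let-7b: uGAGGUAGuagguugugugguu
The seed GAGGUAG, the stretch that pairs with target mRNAs, was identical in all 9, and no other human probe of the panel carried it. RefSeq lists 11 human mature miRNAs with this seed, so 2 of them were not analysed here. All members are 22 bases long and differ from let-7a at 8 positions in all. Counting from 1 at the 5′ end with the let-7a base first, let-7f differs by G12A, let-7c by A19G and let-7e by U9G. let-7b differs by A17G and A19G, let-7d by U1A and U16C, let-7g by G12U and U18C, and miR-98 by G11A and A19U. let-7i is the most distant from let-7a, with G12U, A17G, U18C and A19U. Of the 36 pairs of members, 4 were a single base apart.

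Lane totals were 32138 to 58298 miRNA counts in shPLEKHA7 and 34942 and 50372 in NT cells. The limit of detection, the mean plus 2 SD of the 8 negative-control probes of a lane, was 11.0 to 24.5 counts in shPLEKHA7 and 13.4 and 20.6 in NT lanes. Epithelial markers of the miR-200 family were above it in all lanes (5 of 5). Of 3 intestinal markers 2 were above it in every lane. Of 9 markers of blood, stroma and vessel 3 were above it in all lanes and 4 in none, and their summed raw count was 136 to 259 in shPLEKHA7 and 152 and 198 in NT lanes. The source of the counts of these 9 markers in this cell line was not tested. The numbers that end the lane names put both NT lanes ahead of all shPLEKHA7 lanes, so that order and group cannot be told apart.

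Of the 9 probes, 8 exceeded the limit of detection in all 5 lanes. let-7e gave exactly 1 count in every lane, as did 12 miRNA probes in all, at or below the lowest negative-control probe of each lane (1 to 5 counts). Its level was therefore not measured, and it was not tested. let-7e is a single base (U9G) from let-7a, whose raw counts in the same lanes were 416 to 763 in shPLEKHA7 and 458 and 538 in NT cells. Whether that 1 is a floor set in the export of the counts was not tested.

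The values below are counts normalized by TMM, a scaling that assumes most probes do not change. let-7a was the brightest member, with 484, 571 and 577 normalized counts in shPLEKHA7 replicates 1, 2 and 3, against 580 and 506 in NT replicates 1 and 3. The shPLEKHA7 lanes lay on either side of the lower NT lane and the groups overlapped. let-7a, let-7f and let-7g together made up 83.6% of the family's raw count in shPLEKHA7 and 80.8% in NT cells (means over lanes). Probes differ in how well they capture their target, so levels of different members are compared here as counts, not as molecules.

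let-7g passed the test of a difference between the groups with all lanes and TMM scaling. Its normalized counts were 332, 301 and 362 in shPLEKHA7 replicates 1, 2 and 3, against 549 and 499 in NT replicates 1 and 3. Every shPLEKHA7 lane was below both NT lanes by more than the lanes of a group differed among themselves. The means were 332 ± 30.6 in shPLEKHA7 (SD, n = 3) and 524 ± 35.1 in NT cells (SD, n = 2), a log2 fold change of -0.65 (SE 0.13, edgeR adjusted p = 0.0269), so that let-7g fell by 36.4%. In RNA from whole cultures, fewer cells that make a miRNA and less of it per cell cannot be told apart. In this fit 1 of the 8 tested members, let-7g, had an adjusted p under 0.05. let-7d and let-7i, described below, had fold changes of like size, and whether members differ in their response was not tested in this fit. The 8 lower calls over all 204 tested probes are 3.92% of these. No member was called higher by edgeR, where 2.45% of all probes were (24 probes higher and 24 lower at an unadjusted p under 0.05, 0 and 3 of them members). The call also depended on the scaling, since with the housekeeping-based factors of the deposited table the same test gave -0.70 with a larger error (SE 0.32, edgeR adjusted p = 0.217). It rested on both NT lanes as well. Without NT replicate 1 its log2 fold change was -0.58 (edgeR adjusted p = 0.151) and without NT replicate 3 it was -0.68 (edgeR adjusted p = 0.0644).

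**Figure D1:**
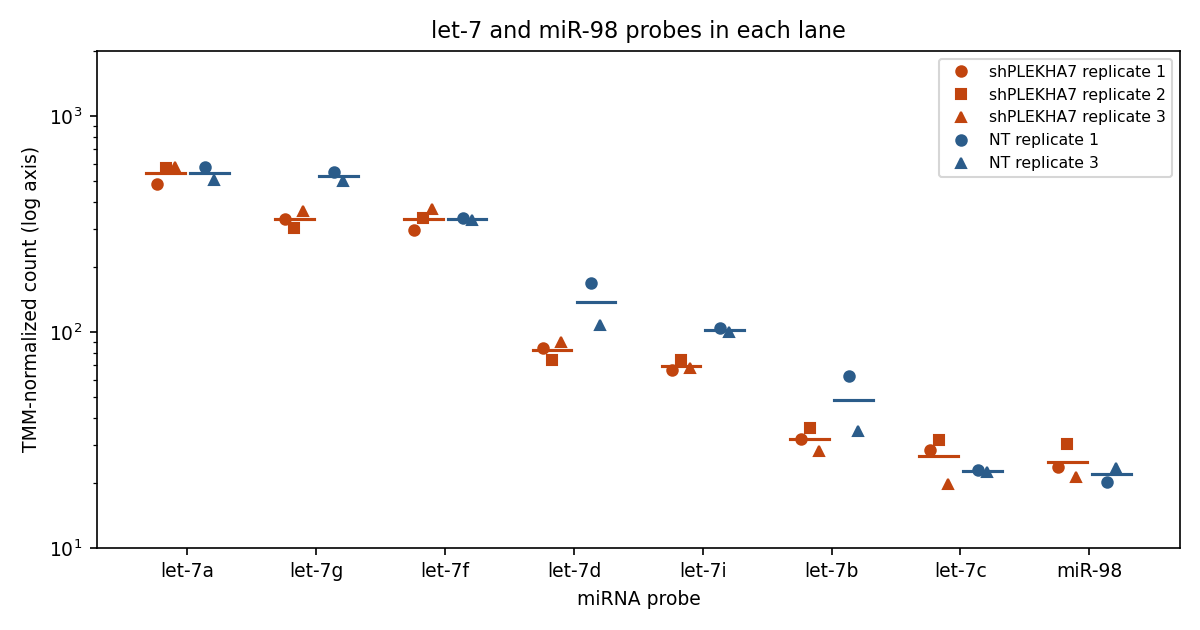
TMM-normalized counts (log axis) of the 8 tested members in each lane, with shPLEKHA7 at the left and NT at the right of each member and a line at the group mean. let-7g, let-7d and let-7i are lower in every shPLEKHA7 lane than in either NT lane, while let-7b, let-7a, let-7f, let-7c and miR-98 overlap between the groups.

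let-7i, a close relative of let-7g in sequence (2 differences, A17G and A19U from let-7g), had 66.6, 74.2 and 68.0 normalized counts in shPLEKHA7 replicates 1, 2 and 3, against 104 and 99.6 in NT replicates 1 and 3. The groups did not overlap and each was tight. Its log2 fold change of -0.55 (SE 0.16) missed the threshold after adjustment over all probes (edgeR adjusted p = 0.0743). With a sample left out it ran from -0.61 to -0.52, the narrowest range among the 8 members.

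let-7d, whose gene lies beside those of let-7a and let-7f, had 83.9, 74.2 and 90.0 normalized counts in shPLEKHA7 replicates 1, 2 and 3, against 169 and 107 in NT replicates 1 and 3. The groups did not overlap, but the NT lanes differed from each other more than the lower NT lane did from the shPLEKHA7 lanes. Its log2 fold change of -0.71 (SE 0.21) was the most negative of the family and also missed the threshold (edgeR adjusted p = 0.0844). Leaving out NT replicate 1 gave -0.36, and leaving out NT replicate 3 gave -0.97. let-7d passed in 5 of 11 alternative settings with all lanes (the replicate block aside) and in 2 of 5 fits without a sample.

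let-7b had 31.9, 35.7 and 28.0 normalized counts in shPLEKHA7 replicates 1, 2 and 3, against 62.1 and 34.8 in NT replicates 1 and 3. NT replicate 3 lay within the shPLEKHA7 values and NT replicate 1 far above them. The log2 fold change of -0.59 (SE 0.27, edgeR adjusted p = 0.223) became -0.15 when NT replicate 1 was left out and -0.94 when NT replicate 3 was. In all, 3 of 8 tested members lay lower in shPLEKHA7 with no overlap between groups and 0 lay higher, where the shares over all tested probes were 22.1% and 26%.

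The other 4 members had fold changes within about their SE of 0. let-7f had 297, 335 and 369 normalized counts in shPLEKHA7 replicates 1, 2 and 3, against 335 and 330 in NT replicates 1 and 3. Its log2 fold change was 0.0084 (SE 0.14, edgeR adjusted p = 0.997), and that of let-7a was 0.0042 (SE 0.14, edgeR adjusted p = 0.998). Changes smaller than these errors were not detectable, and much larger ones could go uncalled, as let-7i did at -0.55 (SE 0.16). let-7c and miR-98 were near the detection limit, and their groups overlapped. let-7c had raw counts of 23 to 31 in shPLEKHA7 lanes, against 18 and 24 in NT lanes, and miR-98 had 22 to 28 in shPLEKHA7 lanes, against 16 and 25 in NT lanes. Their log2 fold changes were 0.18 (SE 0.28) and 0.14 (SE 0.27), smaller than their errors.

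**Figure D2:**
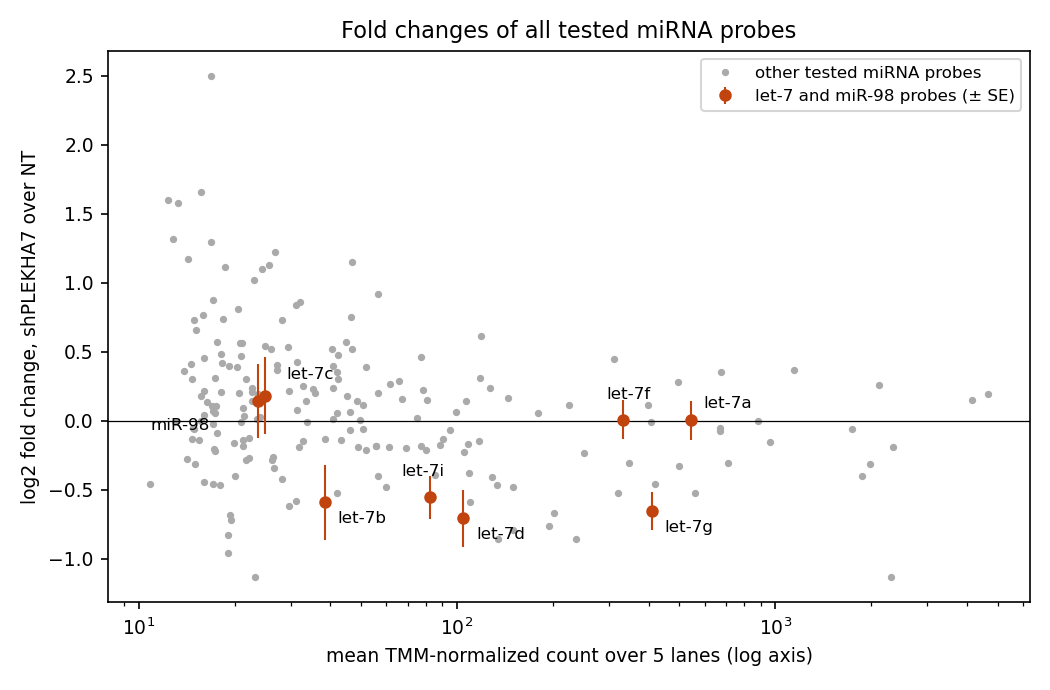
Log2 fold change (shPLEKHA7 over NT) against mean TMM-normalized count over the 5 lanes (log axis) for all 204 tested probes, with the 8 family members labelled and drawn with their SE. let-7g, let-7d, let-7b and let-7i lie between -0.71 and -0.55, and the other 4 members between 0.0042 and 0.18.

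With all lanes, 4 of the 8 fold changes were from -0.71 to -0.55 and 4 from 0.0042 to 0.18. The gap between them rested on NT replicate 1, since without that lane let-7d was at -0.36 and let-7b at -0.15, while let-7g and let-7i were at -0.58 and -0.52. Their median was -0.27, beside 0.059 for all 204 tested probes, and 10.3% of all tested probes were below -0.5. The position of 0 depends on the scaling. Spike-ins, synthetic targets added to every lane, totalled 14017, 10670 and 14239 counts in shPLEKHA7 replicates 1, 2 and 3, against 7686 and 10656 in NT replicates 1 and 3, so scaling to them lowers all shPLEKHA7 values. The median of all probes was 0.059 under TMM, 0.12 under total-count and -0.27 under spike-in scaling. Under TMM let-7g was at -0.71 relative to that median, and let-7a and let-7f were at -0.055 and -0.051. A change of scaling moves all probes by nearly the same amount, so values relative to the median stay nearly the same by construction. Taken as they are, the spike-in values of let-7a and let-7f were negative (-0.34 and -0.33), as were those of let-7c (-0.15) and miR-98 (-0.19).

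**Figure D3:**
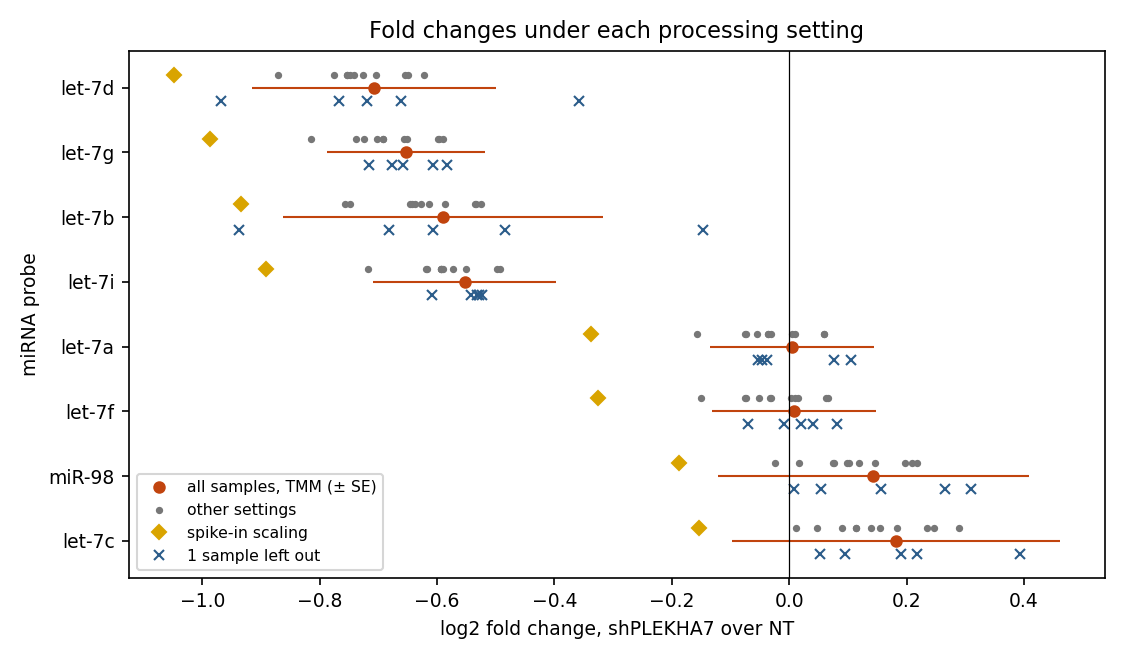
Log2 fold change (shPLEKHA7 over NT, horizontal axis) of each tested member with all samples and TMM scaling (circle with SE), other settings with all samples (dots), spike-in scaling (diamonds) and 1 sample left out (crosses). let-7g runs from -0.99 to -0.58 and let-7i from -0.89 to -0.49, while let-7a and let-7f lie on both sides of 0.

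To compare members with no scaling between lanes, each count was divided by the let-7a count of the same lane. let-7g stood at 68.5%, 52.6% and 62.8% of let-7a in shPLEKHA7 replicates 1, 2 and 3, against 94.5% and 98.7% in NT replicates 1 and 3. The count of let-7g was thus close to that of let-7a in NT lanes and clearly below it in shPLEKHA7 lanes. On the log2 scale this ratio averaged -0.71 ± 0.19 in shPLEKHA7 (SD, n = 3) and -0.050 ± 0.044 in NT cells (SD, n = 2), a difference of -0.66 (2-sided exact permutation p = 0.1, the smallest that the 10 splits of 3 against 2 lanes allow). let-7i stood at 13.7%, 13.0% and 11.8% of let-7a in shPLEKHA7 replicates 1, 2 and 3, against 17.9% and 19.7% in NT replicates 1 and 3. let-7d stood at 17.3%, 13.0% and 15.6% in shPLEKHA7 replicates 1, 2 and 3, against 29.0% and 21.2% in NT replicates 1 and 3. Both ratios, like that of let-7g, were lower in every shPLEKHA7 lane.

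The let-7b ratio was lower in all shPLEKHA7 lanes too (4.85% to 6.59%, against 6.88% and 10.7% in NT lanes), though by a gap of only 0.061 on the log2 scale. The log2 differences were -0.55 for let-7i, -0.71 for let-7d and -0.55 for let-7b, each at an exact permutation p of 0.1, and for all 4 members the p adjusted over the 7 ratios compared was 0.175. Over all 203 other tested probes the ratio to let-7a was lower with no overlap in 16.3% and higher in 20.7%. let-7f stood at 61.4%, 58.7% and 64.0% of let-7a in shPLEKHA7 replicates 1, 2 and 3, against 57.6% and 65.2% in NT replicates 1 and 3, a log2 difference of -0.00064 (exact permutation p = 1). The ratios of let-7c and miR-98 to let-7a overlapped between groups, with log2 differences of 0.19 and 0.18 (exact permutation p = 0.6 and p = 0.5).

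**Figure D4:**
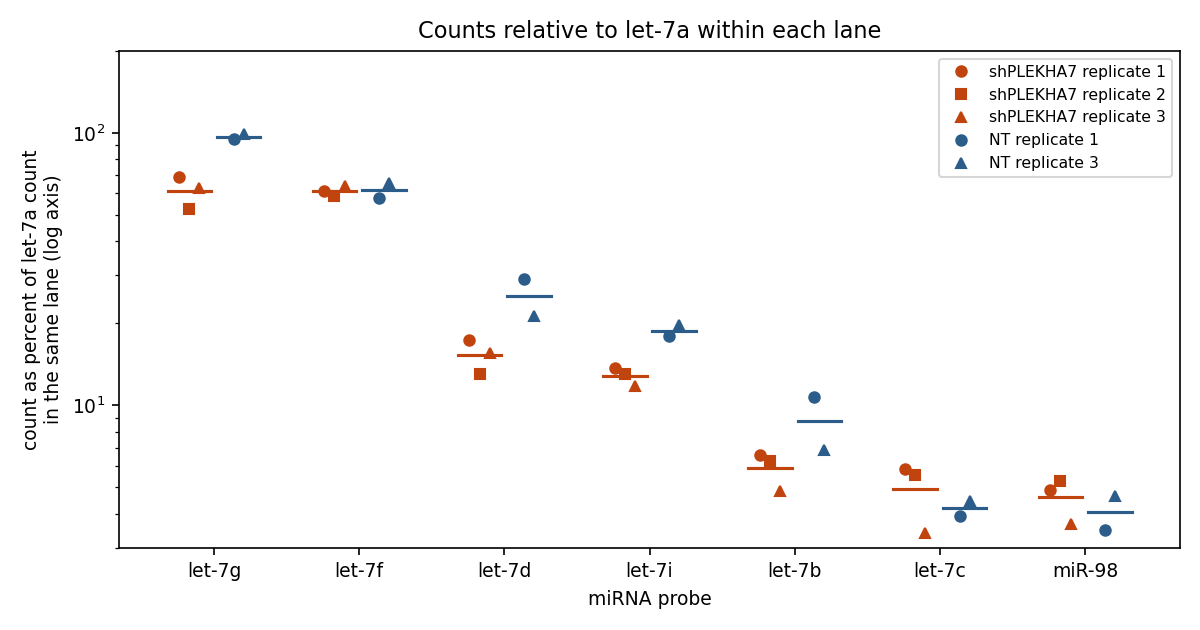
Count of each member as a percent of the let-7a count in the same lane (log axis), with shPLEKHA7 at the left and NT at the right of each member and a line at the group mean. let-7g, let-7d, let-7i and let-7b are lower in all 3 shPLEKHA7 lanes, and let-7f lies at 57.6% to 65.2% in all 5 lanes.

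The family as a whole took 3.08%, 3.30% and 3.48% of the miRNA count in shPLEKHA7 replicates 1, 2 and 3, against 4.16% and 3.43% in NT replicates 1 and 3. The shPLEKHA7 replicate 3 lane lay just above NT replicate 3, so the groups overlapped. The widest 95% Wilson interval, that of NT replicate 1, ran from 3.96% to 4.38% and covers counting error only. The means of 3.29% ± 0.20 in shPLEKHA7 (SD, n = 3) and 3.79% ± 0.52 in NT cells (SD, n = 2) differed by -0.51 percentage points (2-sided exact permutation p = 0.2), and by -0.14 without NT replicate 1. Shares of single members within that total were not tested between the groups. let-7g was 24.6%, 20.7% and 23.6% of the family count in shPLEKHA7 replicates 1, 2 and 3, against 29.8% and 30.7% in NT replicates 1 and 3. let-7a was 35.9%, 39.3% and 37.6% in shPLEKHA7 replicates 1, 2 and 3, against 31.5% and 31.2% in NT replicates 1 and 3. These shares sum to a whole, so a lower share of some members raises that of the rest.

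Set beside the sequences printed above, the 4 members with negative fold changes (let-7b, let-7d, let-7g and let-7i) each differ from let-7a within bases 16 to 18, where let-7d has U16C, let-7b A17G, let-7g U18C and let-7i A17G and U18C. The 4 members above 0 (let-7a, let-7c, let-7f and miR-98) all carry the let-7a bases there, as does the unmeasured let-7e. This split was seen after the values and has no test, and without NT replicate 1 the let-7b value of -0.15 was smaller than its SE of 0.27. Members of the first set have 8 to 10 G or C bases and those of the second 7 to 9. Whether GC content plays a part was not tested. Members of both sets differ from let-7a at base 12 (let-7f, let-7g and let-7i) and at base 19 (let-7b, let-7i, let-7c and miR-98). The stretch of bases 16 to 18 was itself picked with the values known. What separates the 2 sets was not tested.

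Closeness in sequence and likeness over lanes were also set side by side, as the root mean square difference of log2 levels after each probe was centred on its mean over the 5 lanes. Of the 28 pairs of tested members, let-7a and let-7f were the most alike at 0.069, a single base apart. let-7b and let-7c, also a single base apart, differed by 0.47, more than let-7d and let-7i at 0.24 with 6 differences. let-7c and miR-98 followed at 0.14, and let-7g and let-7i next, at 0.14. The medians were 0.29 over 3 pairs a single base apart, 0.33 over 8 pairs with 2 differences, 0.42 over 7 pairs with 3 and 0.30 over 9 pairs with 4. This measure includes counting error, which is relatively larger for dim probes. Raw counts over the 5 lanes were 26 to 49 for let-7b, 18 to 31 for let-7c and 16 to 28 for miR-98, against 416 to 763 for let-7a. How much of each difference is counting error was not tested, so the order of pairs cannot be read as an effect of sequence. Whether probes of this family read each other's targets was not tested.

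**Figure D5:**
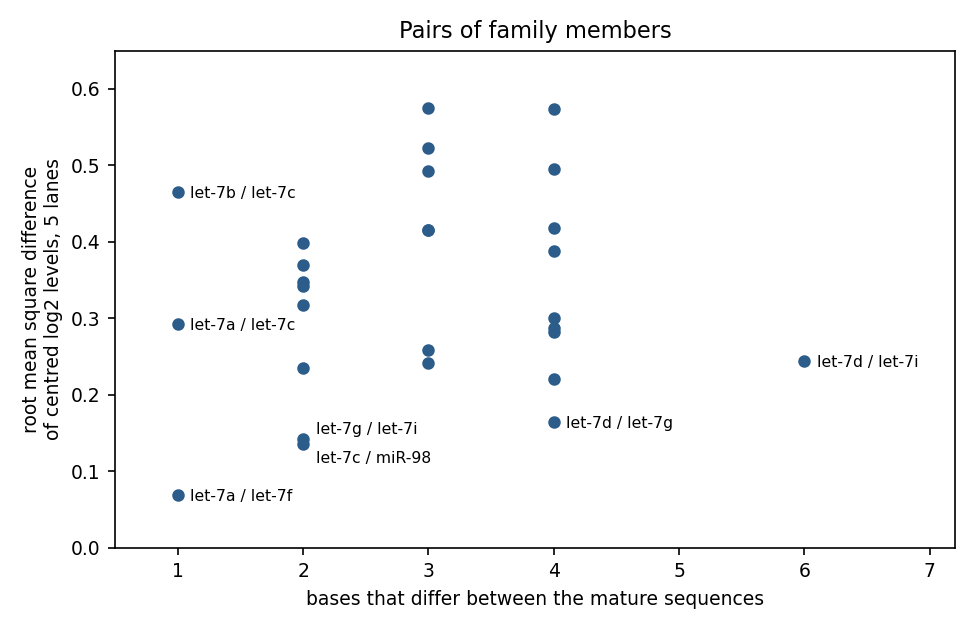
Root mean square difference of centred log2 levels over the 5 lanes (vertical axis) against the number of bases that differ (horizontal axis), for the 28 pairs of tested members. Pairs a single base apart run from 0.069 (let-7a and let-7f) to 0.47 (let-7b and let-7c). The measure includes counting error, which is relatively larger for dim members such as let-7b and let-7c.

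The 9 mature sequences come from 12 loci in RefSeq (GRCh38.p14), and the assay cannot say which locus a count came from. let-7g has a single locus, at chr3:52268336-52268357 on the minus strand, within the span of WDR82, a protein-coding gene. let-7i is at chr12:62603691-62603712 on the plus strand, within the lncRNA gene MIRLET7IHG. let-7d (chr9:94178841-94178862, plus strand) shares the lncRNA gene MIRLET7A1HG with let-7a-1 (chr9:94175962-94175983) and let-7f-1 (chr9:94176353-94176374). The hairpin of let-7f-1 is 2400 bases from that of let-7d and 310 bases from that of let-7a-1. With all lanes, let-7d stood at log2 -0.71 and let-7a and let-7f at 0.0042 and 0.0084, although let-7a has loci on chromosomes 11 and 22 as well and let-7f another on X.

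let-7b (chr22:46113691-46113712, plus strand) is 863 bases from let-7a-3 (chr22:46112752-46112773) in MIRLET7BHG. miR-98 (chrX:53556299-53556320, minus strand) is 850 bases from let-7f-2 (chrX:53557246-53557267) in the span of HUWE1, which encodes a ubiquitin ligase. let-7c (chr21:16539838-16539859, plus strand) lies in MIR99AHG, and let-7e (chr19:51692793-51692814, plus strand) in the span of SPACA6. The remaining let-7a locus (chr11:122146568-122146589, minus strand) is in MIR100HG. Exon and intron positions of the mature sequences were not analysed here.

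Probes for miRNAs transcribed with these loci were low, and no opposite-strand (star) probe named for let-7 or miR-98 was on the panel. Of miR-99a, miR-99b, miR-100, miR-125a-5p and miR-125b, 2 passed the filter for testing (miR-99a and miR-125b). miR-99a, which neighbours let-7c at 658 bases, had raw counts of 21, 16 and 39 in shPLEKHA7 replicates 1, 2 and 3, against 13 and 19 in NT replicates 1 and 3. It exceeded the limit of detection in 2 shPLEKHA7 lanes and in no NT lane. It thus passed the filter only through the lanes of the group where it is higher, and no fold change or test is given. miR-125b, homologous to the worm timing miRNA lin-4, had raw counts of 27, 21 and 28 in shPLEKHA7 replicates 1, 2 and 3, against 5 and 26 in NT replicates 1 and 3. Only NT replicate 1 stood apart there. The log2 fold change of 0.56 (SE 0.43, edgeR adjusted p = 0.493) became -0.0037 without that lane. miR-99b and miR-125a-5p, which flank let-7e, exceeded the limit in no lane, like let-7e itself, and miR-100 exceeded it in 1 lane.

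Among tested probes outside the family, the 3 whose levels over the 5 lanes were most like those of let-7g were miR-29a, miR-24 and miR-450a, at root mean square differences of 0.13, 0.13 and 0.17 on the log2 scale. They were picked by likeness over the same lanes, so fold changes like that of let-7g follow from the choice. The same holds for the probes picked for let-7a below. Their fold changes and p-values are no separate evidence about the family. miR-29a, which targets collagen mRNAs, had 147, 169 and 172 normalized counts in shPLEKHA7 replicates 1, 2 and 3, against 288 and 231 in NT replicates 1 and 3 (log2 -0.67, SE 0.15, edgeR adjusted p = 0.0317). miR-24 had 170, 173 and 193 in shPLEKHA7 replicates 1, 2 and 3, against 317 and 330 in NT replicates 1 and 3 (log2 -0.85, SE 0.13, edgeR adjusted p = 0.0186). miR-450a was dim, with 21.9 to 28.7 in shPLEKHA7 lanes and 31.7 and 34.8 in NT lanes, and was not called (log2 -0.42, SE 0.23). The 3 most like let-7a were miR-374b, miR-208a and miR-191, at 0.077, 0.085 and 0.095, with log2 fold changes of 0.15 (SE 0.17), -0.057 (SE 0.37) and -0.18 (SE 0.16). miR-208a was dimmer than miR-450a, with 12.8 to 15.9 normalized counts in shPLEKHA7 lanes and 17.7 and 13.2 in NT lanes. Its likeness to let-7a thus rests on values near background. By the root mean square difference let-7a was closer to let-7f, at 0.069, than to any probe outside the family, though only just. The other tested members were farther from let-7a than these 3 probes, from 0.24 for miR-98 to 0.40 for let-7d.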

How the data were processed

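The authors deposited a table of raw counts of reporter barcodes per probe and lane, in whole numbers, and a table of normalized signal. The counting software is not given in the sources used here. In the authors' normalized signal, each human miRNA value was, within 0.02, a lane's raw count multiplied by a factor of that lane (100% of values), which brought the 5 housekeeping mRNAs to a common geometric mean of 1802. Groups came from sample titles. Raw counts of miRNA probes were TMM-scaled and compared between groups, with no other term, by edgeR's quasi-likelihood test (version 4.0.16 under R 4.3.3). Calls had a Benjamini-Hochberg adjusted p under 0.05. Tested were the 204 probes above the limit of detection (negative-control mean plus 2 SD) in 2 or more lanes. An SE is the size of the log2 fold change divided by the root of the F statistic. Shares and within-lane ratios were compared by 2-sided exact permutation over 10 splits. Named probes are all 9 members, 5 cluster neighbours, any star probes, and the 3 probes nearest to let-7g and to let-7a. Alternatives covered other scalings, DESeq2 1.42.0, limma 3.58.1 with pseudocounts of 1 and 8, background subtraction, filters, a replicate block and leaving out each sample. The edgeR step was tested on simulated data. The members, lists and rules were chosen with earlier results of these data known. RNA came from separate infections, per the series' design text. The p-values set group differences against variation among these 5 samples. Lanes of a group differed by more than sampling noise (chi-square per degree of freedom 1.80 to 5.12).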

Additional observations from a re-analysis of the deposited data

How the results depend on the processing

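The number of miRNA probes called lower was 8 with TMM, 2 under the deposited scaling, 29 under spike-in scaling, and 2 and 4 by limma with pseudocounts of 1 and 8. The number called higher was 5 with TMM, 11 by total count, 0 by DESeq2 (17 at an unadjusted p under 0.05), 1 with no filter, 2 among probes above the limit in all lanes and 10 with the replicate block. With a sample left out these ran from 0 to 11 lower and from 0 to 9 higher by edgeR; leaving out NT replicate 3 left edgeR with 0 calls (34 probes at an unadjusted p under 0.05), and leaving out NT replicate 1 left it with 1 (38 probes).

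Of the family, 1 member was called lower with TMM. The number was 2 with DESeq2 size factors, total counts, DESeq2 and the replicate block (of 10, 9, 9 and 12 probes called lower in all), 4 under spike-in scaling, and 0 under the deposited scaling and by limma with either pseudocount (4, 2 and 3 members at an unadjusted p under 0.05), and was 0 to 2 when 1 sample was left out. let-7g passed in 7 of 11 alternatives with all lanes, the replicate block aside. It was lost under the deposited scaling (edgeR adjusted p = 0.217), by limma (adjusted p = 0.238 and 0.105) and with no filter (edgeR adjusted p = 0.0558, with log2 -0.81), and in 2 of 5 fits without a sample. The median of the tested members, -0.27, was -0.61 under spike-in scaling and -0.44 with no filter, and lay between -0.33 and -0.063 when 1 sample was left out.

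let-7a turned to -0.036 with DESeq2 size factors, -0.055 under the deposited scaling, -0.34 under spike-in scaling, -0.036 by DESeq2, -0.075 and -0.074 by limma, -0.16 with no filter and -0.030 with the block, and ran from -0.053 to 0.11 without a sample. let-7f turned to -0.032, -0.051, -0.33, -0.032, -0.076, -0.074 and -0.15 in the first 7 of these, and ran from -0.070 to 0.082 without a sample. Spike-in scaling put let-7c at -0.15 and miR-98 at -0.19, and miR-98 was at -0.023 with no filter. miR-125b ran from -0.0037 to 1.97 without a sample. The log2 ratio to let-7a ran from -0.090 to 0.089 for let-7f and from -0.026 to 0.39 for miR-98 without a sample, and kept its sign for the other 5 members. The cause of these moves was not tested.

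The labels do not say that a replicate number marks a shared infection set, so the numbers were not taken as pairs. Deviations of same-numbered lanes from their group means were correlated at 0.018 and 0.14. With 2 NT lanes these deviations mirror each other, and the swapped pairs gave -0.018 and -0.14 by construction. These correlations therefore cannot decide whether the lanes are paired. With the replicate block let-7g was at -0.59 (edgeR adjusted p = 0.0126) and let-7d at -0.62 (edgeR adjusted p = 0.0471). Counts of let-7c, miR-98 and miR-99a lay near the detection limit, which limits their precision. let-7e has no measured level, and the reason was not tested.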
